A study of Homo sapiens with 12 samples.

Results

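The genes described here are the extracellular ligands, latency proteins, antagonists, receptors, SMAD proteins, intracellular inhibitors and direct targets of the TGF-β, activin and BMP pathways. They are a set of 46 genes found by symbol among the 60623 genes of the NONO table and the 60671 genes of the PKM2 table. RNA-seq was performed on MDA-MB-231 cells, an established human triple-negative breast cancer (TNBC) cell line, in 2 experiments of 6 libraries. In one, 3 negative control (NC) libraries stood against 3 libraries of NONO-knockdown cells, and in the other 3 NC libraries stood against 3 libraries of PKM2-knockdown cells. The labels give the genotype of both NC groups as WT. The series' design text names siRNA as the knockdown reagent, and no library was shared between the experiments. NONO is a nuclear RNA- and DNA-binding protein of paraspeckles, and PKM2 is an isoform of the glycolytic enzyme pyruvate kinase, made from the PKM gene. The study asked which transcripts respond to NONO knockdown, to PKM2 knockdown, or to each of them separately. The labels do not say whether the libraries of a group came from separate cultures, so the P values measure the spread between libraries, which may be technical.

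Ligands of this superfamily are secreted as dimers and are held back by latency proteins or antagonists until they reach a receptor complex of type I and type II kinases. The type II receptor phosphorylates the type I receptor, which phosphorylates receptor-regulated SMADs: SMAD2 and SMAD3 for TGF-β and activin, and SMAD1, SMAD5 and SMAD9 for BMP. These bind SMAD4 and act on target genes in the nucleus. SMAD6 and SMAD7, the SMURF ubiquitin ligases and the co-repressors SKI, SKIL and TGIF1 hold the signal down. In breast cancer cells of mesenchymal type, TGF-β signalling is known for its links to invasion and metastasis, and the ID genes are textbook BMP targets.

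The estimated counts summed to between 19861762 and 28455268 per library. NONO fell from 391, 358 and 369 CPM (counts relative to library size, after TMM normalization) in NC to 61.8, 64.3 and 61.9 CPM in its knockdown, and PKM fell from 2276, 2211 and 2324 to 218, 228 and 234 CPM in its own. The PKM value covers all isoforms of the gene. The mesenchymal markers VIM, CD44 and AXL were at 3291 to 4466, 275 to 330 and 235 to 373 TPM, a length-normalized level, in the 12 libraries, while ESR1, PGR and CDH1 were at 0.41 TPM or less. EGFR, MSN and KRT18, which this cell type should express, were at 50.7 TPM or more. ERBB2, which should be low in it, lay between 13.7 and 35.2 TPM. The epithelial marker EPCAM reached 3.73 TPM, and the luminal breast markers GATA3 and FOXA1 reached 4.37 and 1.99 TPM. KRT19, the other luminal marker examined, was not low, at 20.25 to 57.5 TPM. The blood markers PTPRC and HBB and the endothelial markers PECAM1 and CDH5 stayed at 2.31 TPM or less. Library 1 of the NC group for NONO and library 3 of the PKM2 knockdown stood farthest from their replicates, so the main counts are also given without them. As these are bulk libraries, fewer cells with a transcript and less of it per cell cannot be told apart.

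On the TPM scale, which allows levels to be compared between genes, 25 of the 46 genes stood at a mean of 10 TPM or more in each NC group, 16 between 1 and 10 TPM and 5 under 1 TPM. The most abundant in the NONO experiment's NC group were ID1 at 218 ± 6.396 TPM (SD, n = 3), the secreted glycoprotein FSTL1 at 199 ± 15.4 TPM and the ubiquitin ligase SMURF2 at 135 ± 3.4 TPM. In the PKM2 experiment's NC group, FSTL1 stood at 230.1 ± 10.4 TPM, SMURF2 at 165 ± 4.44 TPM and ID1 at 93.9 ± 10.3 TPM. The ID1 levels of the 2 NC groups did not overlap, with 224, 212 and 219 TPM against 94.7, 83.2 and 104 TPM, and since the tables were made separately no test was run between them. Of the receptors, TGFBR2 was the most abundant in both NC groups, at 74.7 ± 4.12 and 68.3 ± 1.58 TPM, and its partner TGFBR1 stood at 9.05 ± 0.649 and 8.88 ± 0.3902 TPM. BMP4 was the most abundant of the 7 ligands, at 42.7 ± 3.17 and 42.8 ± 1.56 TPM. It was followed by TGFB1 at 33.6 ± 1.499 and 36.7 ± 2.802 TPM and TGFB2 at 23.1 ± 2.72 and 20.1 ± 2.12 TPM. Among the receptor-regulated SMADs, SMAD3 led at 49.7 ± 6.67 and 46.3 ± 2.22 TPM and SMAD9 was lowest at 1.21 ± 0.0721 and 1.25 ± 0.224 TPM. The 5 genes under 1 TPM in the NONO experiment's NC group were ID2, BMPR1B, INHBA, INHBB and GREM1.

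SMAD3 and SMAD4 bind the short element AGAC and its palindrome GTCTAGAC, and SMAD1 and SMAD5 also bind GC-rich elements such as GGCGCC. The promoters of 43 of the 46 genes were matched by symbol in RefSeq (GRCh38.p14), and SKI, BMP2 and NOG were not. The 250 bases before each listed transcription start gave 84 windows, since some genes have several starts, and both strands were searched. The palindrome GTCTAGAC was present in 1 of the 84 windows (1.19%), that of the inhibitory SMAD6, against 0.182% of the 35116 windows of all genes. CAGACA was present in 17 of the 84 windows (20.2%) against 13.6% of the 35116 windows of all genes, and GGCGCC in 21 of the 84 windows (25%) against 16.4% of the 35116 windows of all genes. AGAC, which also lies inside CAGACA and GTCTAGAC and was added to the search after the data were seen, was present in 66 of the 84 windows (78.6%) against 77.5% of the 35116 windows of all genes. The windows of 4 genes chosen by name, each with a single listed start, are shown 5′ to 3′ with the motif matches in capitals. They include the direct target ID1, which fell after PKM2 knockdown, and the ligands INHBB and TGFB2, which rose. The SMAD6 window is shown because it holds the palindrome.
ID1, chr20:31605039-31605288, plus strand: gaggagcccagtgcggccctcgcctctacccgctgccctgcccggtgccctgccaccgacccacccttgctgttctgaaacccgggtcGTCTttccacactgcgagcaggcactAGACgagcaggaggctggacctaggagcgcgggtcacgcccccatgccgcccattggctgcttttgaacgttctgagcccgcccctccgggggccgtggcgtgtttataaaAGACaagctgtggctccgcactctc
TGFB2, chr1:218345086-218345335, plus strand: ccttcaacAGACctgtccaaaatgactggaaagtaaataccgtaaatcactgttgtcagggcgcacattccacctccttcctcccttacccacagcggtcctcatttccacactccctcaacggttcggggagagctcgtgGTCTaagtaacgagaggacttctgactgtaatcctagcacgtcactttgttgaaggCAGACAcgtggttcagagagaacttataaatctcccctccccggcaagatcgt
INHBB, chr2:120345886-120346135, plus strand: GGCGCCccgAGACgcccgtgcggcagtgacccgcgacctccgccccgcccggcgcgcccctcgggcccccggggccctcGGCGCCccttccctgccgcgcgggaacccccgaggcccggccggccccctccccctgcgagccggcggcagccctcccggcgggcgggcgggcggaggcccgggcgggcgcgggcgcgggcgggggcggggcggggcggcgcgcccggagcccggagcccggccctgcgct
SMAD6, chr15:66701986-66702235, plus strand: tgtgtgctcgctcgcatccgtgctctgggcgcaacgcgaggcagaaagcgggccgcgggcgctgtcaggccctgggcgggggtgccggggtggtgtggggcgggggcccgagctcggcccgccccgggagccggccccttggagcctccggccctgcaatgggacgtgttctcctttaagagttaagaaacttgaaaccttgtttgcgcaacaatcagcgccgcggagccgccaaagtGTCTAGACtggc
The ID1 window had AGAC 162, 136 and 25 bases before the start, the one farthest away as its reverse complement GTCT. In the TGFB2 window CAGACA began 53 bases before the start, the INHBB window held GGCGCC at 250 and 171 bases, and the palindrome of SMAD6 began 12 bases before the start. The TGFB2 window ends at 218345335, upstream of the gene start in the GENCODE annotation at 218346235. Its distances therefore hold for the RefSeq start only. A match shows that these letters are present and not that a SMAD binds there.

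After the low-count filter, 43 of the 46 genes could be tested after NONO knockdown and 44 after PKM2 knockdown, GREM1 and ID2 in neither and INHBB in the latter only. NONO knockdown lowered 10 of the 43 genes (23.3%) at an adjusted P below 0.05, where 17.2% of all genes tested were lowered. It raised 8 (18.6%), where 16.2% of all genes were raised, so that 18 of 43 (41.9%) were called in either direction against 33.4% of all genes. None of the 43 passed the study's cutoffs of a fold change above 2 with P below 0.05, which 2.95% of all genes passed. PKM2 knockdown lowered 15 of the 44 genes (34.1%), where 34.7% of all genes tested were lowered. It raised 20 (45.5%), where 33.6% of all genes were raised, and the sum of 35 of 44 (79.5%) compares with 68.4% of all genes. The cutoffs of 2-fold and P below 0.05 were passed by 16 of the 44 (36.4%), against 20.8% of all genes. Without library 1 of the NC group for NONO, NONO knockdown lowered 13 and raised 9 of the genes, and without library 3 of the PKM2 knockdown, PKM2 knockdown lowered 15 and raised 19. These refits ran over 15170 and 15912 genes, and the shares of all genes called in them are not given here. The median log2 fold change of the genes was -0.06 after NONO knockdown and 0.09 after PKM2 knockdown, and over all genes tested it was -0.01 in both. The NC and knockdown CPM values did not overlap for 19 of the 43 genes after NONO knockdown and for 35 of the 44 after PKM2 knockdown, against 46.1% and 71.9% of all genes.

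**Figure D1:**
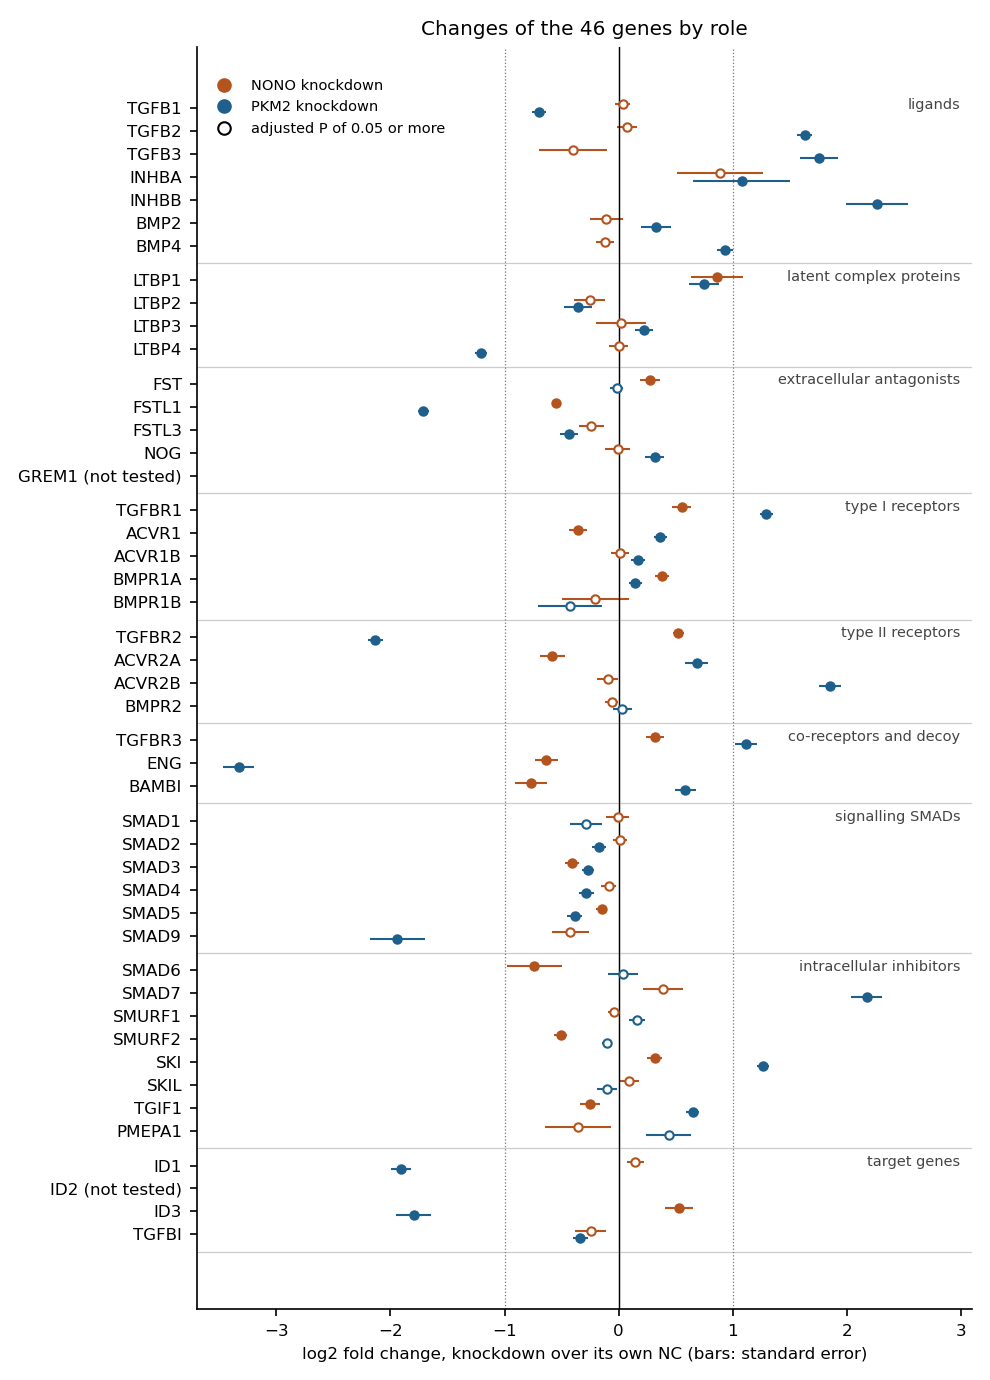
Log2 fold change of the tested genes after NONO knockdown (brown) and PKM2 knockdown (blue) by role, with the standard error of the edgeR fit as a bar; filled points passed an adjusted P below 0.05 and dotted lines mark 2-fold changes. All brown points lie within 2-fold of NC, and the blue points reach from ENG at -3.33 to INHBB at 2.27.

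Of the 7 ligand genes, 6 rose and 1 fell after PKM2 knockdown, where 33.6% and 34.7% of all genes did. The rises of INHBA and BMP2 were lost in 4 of the 6 refits without 1 library. None of the 6 ligand genes tested was called after NONO knockdown, where 33.4% of all genes were. TGFB2 (ENSG00000092969, chr1:218346235-218444619, plus strand), a TGF-β isoform, was at 60.6, 67.6 and 61.7 CPM in NC and 209, 197 and 183 CPM after the knockdown. The groups stood far apart, and the gene rose 3.101-fold, with a log2 fold change of 1.63 (SE 0.06, adjusted P = 1.57e-09). TGFB1, the most studied isoform of the family, moved the other way, from 55.4, 56.5 and 60.4 to 36.6, 35.2 and 34.4 CPM, with a log2 fold change of -0.70 (SE 0.06, adjusted P = 7.29e-07). In TPM, the ratio of TGFB2 to TGFB1 was 0.551 ± 0.0867 (SD, n = 3) in the NC libraries and 2.88 ± 0.124 in the PKM2 knockdown, so TGFB1 was the higher transcript in NC and TGFB2 in the knockdown. In the NONO experiment the ratio was 0.686 ± 0.0596 in NC and 0.655 ± 0.0610 in the knockdown. TGFB1 was at 55.1, 65.03 and 60.2 CPM in NC and 63.2, 63.6 and 58.2 CPM after the knockdown there, and TGFB2 at 63.5, 77.8 and 79.1 CPM in NC and 84.2, 76.7 and 71.2 CPM after the knockdown. Both groups overlapped, with log2 fold changes of 0.04 (SE 0.07, adjusted P = 0.717) for TGFB1 and 0.07 (SE 0.08, adjusted P = 0.549) for TGFB2.

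TGFB3 (ENSG00000119699, chr14:75958099-75982991, minus strand), the remaining TGF-β isoform, was at 1.81, 1.99 and 1.69 CPM in NC and 5.47, 6.75 and 6.34 CPM after the knockdown, a log2 fold change of 1.76 (SE 0.17, adjusted P = 1.96e-06). The count-based groups did not overlap, but the deposited TPM values did, with 0.92, 0.97 and 4.59 in NC and 2.29, 2.85 and 2.49 in the knockdown. The ratio of the TPM means was 1.18, against a 3.38-fold rise in counts, and NC library 3 was the high one. INHBB (ENSG00000163083, chr2:120346143-120351808, plus strand), the βB subunit of activin B, had 23, 24 and 31 counts in the NC libraries and 80, 142 and 108 in the PKM2 knockdown. Its level went from 0.785, 0.953 and 1.09 to 3.32, 6.103 and 4.28 CPM without overlap, a 4.82-fold rise with a log2 fold change of 2.27 (SE 0.27, adjusted P = 1.31e-05). INHBB was below the filter in the NONO experiment, with 5, 2 and 3 counts in NC and 4, 1 and 1 in the knockdown. INHBA (ENSG00000122641, chr7:41667168-41705834, minus strand), the βA subunit of activin A, went from 14, 6 and 9 to 12, 16 and 26 counts, or 0.478, 0.238 and 0.318 to 0.497, 0.688 and 1.03 CPM, after PKM2 knockdown. That rise passed the threshold at a log2 fold change of 1.08 (SE 0.42, adjusted P = 0.04), but it was lost without NC library 2 or 3 or knockdown library 2 or 3 (adjusted P = 0.069 to 0.179). After NONO knockdown INHBA had a log2 fold change of 0.89 (SE 0.38, adjusted P = 0.0936) and was not called.

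BMP4 and BMP2 are BMP ligands, which signal through SMAD1, SMAD5 and SMAD9. BMP4 went from 46.99, 43.3 and 48.4 to 80.4, 89.8 and 94.2 CPM, a 1.91-fold rise with a log2 fold change of 0.93 (SE 0.07, adjusted P = 2.64e-07). The lowest knockdown library stood above the highest NC library. For BMP2 the change was from 6.14, 4.85 and 5.54 to 6.67, 7.13 and 7.02 CPM, a log2 fold change of 0.33 (SE 0.13, adjusted P = 0.0399), and this call was lost without NC library 2 or 3 or knockdown library 2 or 3 (adjusted P = 0.0654 to 0.139). In the NONO experiment BMP4 had a log2 fold change of -0.12 (SE 0.08, adjusted P = 0.269) and BMP2 one of -0.11 (SE 0.14, adjusted P = 0.61), with overlapping libraries for both.

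The latent TGF-β binding proteins tie the latent ligand to the matrix. LTBP4 (ENSG00000090006, chr19:40592883-40629818, plus strand), the most abundant of the 4, was at 123, 119.9 and 130.2 CPM in NC and 55.7, 52.6 and 53.5 CPM after the knockdown in the PKM2 experiment. It fell 2.31-fold, with a log2 fold change of -1.21 (SE 0.05, adjusted P = 3.81e-09) and no overlap. After NONO knockdown LTBP4 was at 121, 157 and 147 CPM in NC and 148, 145 and 133 CPM after the knockdown, with overlapping groups and a log2 fold change of 0.00 (SE 0.08, adjusted P = 1). LTBP1 (ENSG00000049323, chr2:32946972-33399509, plus strand) rose after both knockdowns. It was at 3.26, 7.29 and 7.29 CPM in NC and 10.6, 11.8 and 10.3 CPM after the knockdown in the NONO experiment, a log2 fold change of 0.87 (SE 0.23, adjusted P = 0.013). NC library 1 was the low one, and without it the log2 fold change was 0.59 (adjusted P = 0.000691). The call was lost without knockdown library 2 (adjusted P = 0.0618). In the PKM2 experiment LTBP1 went from 4.91, 4.57 and 4.62 to 9.08, 7.35 and 7.33 CPM, a log2 fold change of 0.75 (SE 0.13, adjusted P = 0.000333), while the TPM means differed 1.26-fold. LTBP2 fell after PKM2 knockdown, with overlapping libraries and a log2 fold change of -0.36 (SE 0.12, adjusted P = 0.0235), and LTBP3 rose, likewise with overlap, with 0.22 (SE 0.08, adjusted P = 0.0258). The LTBP2 call was lost without NC library 2 or 3 or knockdown library 2 or 3 (adjusted P = 0.0605 to 0.091) and the LTBP3 call without NC library 1 or 2 or knockdown library 1 (adjusted P = 0.07 to 0.125). After NONO knockdown LTBP2 was at -0.25 (SE 0.14, adjusted P = 0.187) and LTBP3 at 0.02 (SE 0.22, adjusted P = 0.951), in log2 fold change, and LTBP3 in NC library 1 was at 30.3 CPM against 66.1 and 60.6 CPM in the others. Both genes were called lowered without that NC library, LTBP2 at -0.35 (adjusted P = 0.0253) and LTBP3 at -0.24 (adjusted P = 0.0222).

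Of the extracellular antagonists, FSTL1 (ENSG00000163430, chr3:120392293-120451253, minus strand), a follistatin-like glycoprotein that binds BMP4, fell after both knockdowns. Its levels were 666, 636 and 625 CPM in NC and 197, 200.1 and 191 CPM after the knockdown in the PKM2 experiment, a 3.28-fold fall with a log2 fold change of -1.71 (SE 0.05, adjusted P = 1.6e-10). In the NONO experiment it was at 597, 555 and 574 CPM in NC and 394, 396 and 392 CPM after the knockdown, a log2 fold change of -0.54 (SE 0.04, adjusted P = 3.07e-06). No library overlapped in either experiment, and the fall was larger after PKM2 knockdown, by -1.18 (SE 0.06, adjusted P = 1.08e-10) on the log2 scale. FST, follistatin, which traps activin, rose after NONO knockdown from 37.2, 32.5 and 28.9 to 40.8, 41.3 and 37.02 CPM. The libraries overlapped, and the log2 fold change was 0.27 (SE 0.09, adjusted P = 0.0345), which was not called without NC library 2 or 3 or knockdown library 1 or 2 (adjusted P = 0.0723 to 0.13). After PKM2 knockdown FST was at -0.02 (SE 0.06, adjusted P = 0.806). FSTL3, a related activin antagonist, fell after PKM2 knockdown from 22.05, 23.5 and 24.3 to 17.1, 16.3 and 18.3 CPM, with a log2 fold change of -0.43 (SE 0.08, adjusted P = 0.000354). After NONO knockdown it was at -0.24 (SE 0.11, adjusted P = 0.127). NOG, noggin, a BMP trap, rose after PKM2 knockdown from 13.5, 13.5 and 14.5 to 16.5, 16.9 and 18.4 CPM, with a log2 fold change of 0.32 (SE 0.08, adjusted P = 0.00478). After NONO knockdown NOG was at -0.01 (SE 0.11, adjusted P = 0.966). GREM1, gremlin, another BMP trap, had 1.06, 1 and 0 counts in NC and 1, 0 and 0 in the NONO knockdown. It had 0, 0 and 0 and 0.91, 0.98 and 0 in the PKM2 experiment, too few for a comparison at this depth.

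The type I receptors are the kinases that phosphorylate SMADs. TGFBR1 (ENSG00000106799, chr9:99104038-99154192, plus strand), the TGF-β type I receptor, was at 36.7, 34.8 and 37.6 CPM in NC and 94.4, 88.3 and 85.4 CPM after the knockdown in the PKM2 experiment. It rose 2.46-fold, with a log2 fold change of 1.30 (SE 0.06, adjusted P = 5e-09). It also rose after NONO knockdown, from 37.8, 45.4 and 42.3 to 68.3, 56.95 and 59.04 CPM, by a log2 fold change of 0.55 (SE 0.08, adjusted P = 0.00044). The groups were apart in both experiments. ACVR1 (ENSG00000115170, chr2:157736444-157875862, minus strand), a type I receptor for BMP and activin, went opposite ways. It went from 30.1, 30.99 and 33.3 to 22.5, 24.3 and 26.8 CPM after NONO knockdown and from 32.97, 33.04 and 34.1 to 43.1, 41.99 and 43.8 CPM after PKM2 knockdown. The log2 fold changes were -0.36 (SE 0.08, adjusted P = 0.00523) and 0.37 (SE 0.06, adjusted P = 0.000107), again without overlap, and they differed by 0.71 (SE 0.10, adjusted P = 7.4e-06). BMPR1A, a BMP type I receptor, rose after NONO knockdown from 39.7, 41.2 and 40.1 to 54.7, 53.4 and 49.6 CPM, a log2 fold change of 0.38 (SE 0.06, adjusted P = 0.00048). After PKM2 knockdown it went from 38.9, 39.6 and 38.5 to 44.5, 43.8 and 41.3 CPM, one of 0.15 (SE 0.06, adjusted P = 0.0384). The annotation lists pseudogenes of BMPR1A, which may share its reads. ACVR1B, the activin type I receptor, was raised after PKM2 knockdown at 0.17 (SE 0.07, adjusted P = 0.0358) and stood at 0.01 (SE 0.08, adjusted P = 0.924) after NONO knockdown. In the PKM2 experiment ACVR1B was not called without NC library 1 or 2 or 3 or knockdown library 1 or 2 (adjusted P = 0.0775 to 0.0977), nor was BMPR1A without NC library 1 or 2 or 3 or knockdown library 1 or 2 (adjusted P = 0.0739 to 0.118). BMPR1B, another BMP type I receptor, was not called after NONO or PKM2 knockdown, with -0.20 (SE 0.29, adjusted P = 0.64) and -0.43 (SE 0.28, adjusted P = 0.201).

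The type II receptors bind ligand and start the kinase relay. TGFBR2 (ENSG00000163513, chr3:30606502-30694142, plus strand), the TGF-β type II receptor, was at 204, 209 and 212 CPM in NC and 48.4, 51.6 and 42.7 CPM after the knockdown in the PKM2 experiment. The groups were far apart, and the gene fell 4.38-fold, with a log2 fold change of -2.13 (SE 0.07, adjusted P = 3.14e-10). After NONO knockdown it rose, from 229, 255 and 243 to 357, 353 and 335 CPM without overlap, a log2 fold change of 0.52 (SE 0.05, adjusted P = 1.57e-05). The difference between the responses was -2.67 (SE 0.08, adjusted P = 3.04e-13). As TGFBR1 rose while TGFBR2 fell after PKM2 knockdown, the TPM ratio of TGFBR2 to TGFBR1 went from 7.71 ± 0.407 (SD, n = 3) in NC to 0.768 ± 0.0510. After NONO knockdown, where both rose, it was 8.26 ± 0.143 in NC and 8.54 ± 1.03 in the knockdown. ACVR2B (ENSG00000114739, chr3:38453851-38493142, plus strand), an activin type II receptor, was at 10.8, 10.4 and 12.7 CPM in NC and 40.8, 45.3 and 36.7 CPM after the knockdown in the PKM2 experiment. It rose 3.62-fold without overlap, with a log2 fold change of 1.86 (SE 0.10, adjusted P = 1.59e-08), and after NONO knockdown it was at -0.10 (SE 0.09, adjusted P = 0.482) with overlap. ACVR2A (ENSG00000121989, chr2:147844517-147930826, plus strand), its close relative, went from 11.7, 10.7 and 11.4 to 8.18, 7.22 and 7.17 CPM after NONO knockdown and from 10.1, 12.03 and 9.84 to 17.1, 16.1 and 18.2 CPM after PKM2 knockdown. Both pairs of groups were apart, and the log2 fold changes of -0.58 (SE 0.11, adjusted P = 0.00189) and 0.69 (SE 0.10, adjusted P = 7.07e-05) were opposite in sign, with a difference of 1.25 (SE 0.15, adjusted P = 1.66e-06). In TPM the NC libraries of the NONO experiment spread over 9.45, 4.26 and 3.51, and limma on log2(TPM + 1) gave ACVR2A a log2 fold change of -0.72 that was not called (adjusted P = 0.182). BMPR2, the BMP type II receptor, was not called in either experiment, with -0.06 (SE 0.06, adjusted P = 0.476) and 0.03 (SE 0.08, adjusted P = 0.752).

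Of the co-receptors, ENG (ENSG00000106991, chr9:127815012-127854756, minus strand), endoglin, which binds TGF-β and BMP ligands and is best known from endothelium, had the largest fall of the 44 genes tested after PKM2 knockdown. It was at 18.6, 20.7 and 20.4 CPM in NC and 1.53, 2.32 and 2.06 CPM after the knockdown in the PKM2 experiment, with 545, 522 and 577 and 37, 53.7 and 52 counts. The fall was 10.1-fold, with a log2 fold change of -3.33 (SE 0.14, adjusted P = 1.97e-09). After NONO knockdown ENG also fell, from 20.6, 20.4 and 20.7 to 11.7, 15.4 and 12.7 CPM, a log2 fold change of -0.63 (SE 0.10, adjusted P = 0.000753). No library overlapped in either experiment, and the fall was larger after PKM2 knockdown by -2.71 (SE 0.18, adjusted P = 1.7e-09). The endothelial markers PECAM1 and CDH5 reached 2.31 and 0.31 TPM at most in the 12 libraries, and ENG stood at 10.8 ± 0.963 TPM in NC. TGFBR3 (ENSG00000069702, chr1:91680343-91906335, minus strand), betaglycan, which presents TGF-β2 to the receptors, rose after both knockdowns. PKM2 knockdown took it from 16.7, 17.2 and 19.5 to 41.03, 41.99 and 33.02 CPM, a log2 fold change of 1.12 (SE 0.10, adjusted P = 1.05e-06). NONO knockdown took it from 23.5, 21.8 and 22.8 to 29.5, 25.9 and 29.7 CPM, one of 0.32 (SE 0.08, adjusted P = 0.00812), and no library overlapped. BAMBI (ENSG00000095739, chr10:28677342-28682939, plus strand), a decoy receptor without a kinase domain, went from 17.1, 17.9 and 13.3 to 10.4, 10.02 and 7.88 CPM after NONO knockdown and from 15.9, 13.9 and 12.8 to 19.8, 21.6 and 22.6 CPM after PKM2 knockdown. Its groups did not overlap, and the log2 fold changes of -0.77 (SE 0.14, adjusted P = 0.00147) and 0.59 (SE 0.09, adjusted P = 0.000162) had opposite signs, with a difference of 1.34 (SE 0.18, adjusted P = 5.68e-06).

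Of the 6 SMADs that carry the signal, 5 were lowered and none was raised after PKM2 knockdown, where 34.7% of all genes were lowered. After NONO knockdown 2 were lowered and none raised, where 17.2% of all genes were lowered. SMAD9 (ENSG00000120693, chr13:36844831-36920765, minus strand), a BMP SMAD with low expression here, was at 3.55, 4.25 and 3.85 CPM in NC and 1.37, 0.903 and 0.753 CPM after the knockdown in the PKM2 experiment, or 104, 107 and 109 and 33, 21.3 and 19.02 counts. It fell 3.84-fold without overlap, with a log2 fold change of -1.94 (SE 0.24, adjusted P = 2.05e-05). In the NONO experiment its libraries were apart too, at 4.62, 4.67 and 5.001 to 3.54, 4.07 and 3.05 CPM, but the log2 fold change of -0.42 (SE 0.16, adjusted P = 0.0679) missed the threshold. SMAD3, which carries TGF-β and activin signals, fell after both knockdowns, from 169, 194 and 197 to 148, 143 and 132 CPM after NONO knockdown and from 161, 172 and 161 to 142, 139.9 and 128 CPM after PKM2 knockdown. Its log2 fold changes were -0.41 (SE 0.06, adjusted P = 0.000605) and -0.27 (SE 0.05, adjusted P = 0.00081), and their difference of 0.13 (SE 0.09, adjusted P = 0.242) was not called. SMAD5, a BMP SMAD, was lowered at -0.15 (SE 0.04, adjusted P = 0.0233) and -0.38 (SE 0.07, adjusted P = 0.000305). SMAD4, the common partner, was lowered after PKM2 knockdown at -0.28 (SE 0.07, adjusted P = 0.00224), and SMAD2 at -0.17 (SE 0.06, adjusted P = 0.0208). SMAD5 in the NONO experiment was not called without NC library 2 or 3 or knockdown library 2 or 3 (adjusted P = 0.0576 to 0.106), and SMAD2 in the PKM2 experiment was not called without NC library 2 or knockdown library 2 (adjusted P = 0.0673 to 0.0846). SMAD4 and SMAD2 after NONO knockdown were at -0.09 (SE 0.06, adjusted P = 0.341) and 0.01 (SE 0.06, adjusted P = 0.899). SMAD1, a BMP SMAD, was at -0.01 (SE 0.10, adjusted P = 0.962) and -0.29 (SE 0.14, adjusted P = 0.0902) and was called in neither, though in the PKM2 experiment it passed without NC library 2 or knockdown library 2 (adjusted P = 0.0404 to 0.0434). Limma on log2(TPM + 1) also called SMAD1 lowered there (log2 fold change -0.45, adjusted P = 0.0204).

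Among the intracellular inhibitors, SMAD7 (ENSG00000101665, chr18:48919853-48952052, minus strand), which blocks TGF-β and BMP receptors, was at 2.87, 3.14 and 2.47 CPM in NC and 14.3, 11.7 and 12.3 CPM after the knockdown in the PKM2 experiment. It rose 4.52-fold without overlap, with a log2 fold change of 2.18 (SE 0.14, adjusted P = 6.16e-08). After NONO knockdown its libraries were also above NC, at 2.76, 2.91 and 2.66 to 3.94, 3.31 and 3.66 CPM, and the log2 fold change of 0.39 (SE 0.17, adjusted P = 0.112) did not pass. SMAD6 (ENSG00000137834, chr15:66702228-66782848, plus strand), which acts mainly on BMP signals, was at 5.17, 3.43 and 5.14 CPM in NC and 2.89, 3.46 and 1.88 CPM after the knockdown in the NONO experiment. These groups overlapped, the log2 fold change was -0.74 (SE 0.24, adjusted P = 0.036), and the call was lost without NC library 3 or knockdown library 1 or 3 (adjusted P = 0.0785 to 0.137). In the PKM2 experiment SMAD6 was at 5.05, 5.04 and 5.08 CPM in NC and 5.47, 4.86 and 5.27 CPM after the knockdown, with 0.04 (SE 0.13, adjusted P = 0.798). The co-repressor SKI (ENSG00000157933, chr1:2228695-2310119, plus strand) rose after both knockdowns. It was at 65.9, 60.2 and 64.7 CPM in NC and 154, 156 and 149.7 CPM after the knockdown in the PKM2 experiment, a 2.41-fold rise with a log2 fold change of 1.27 (SE 0.05, adjusted P = 2.1e-09). After NONO knockdown it went from 86.4, 71.4 and 82.6 to 101, 98.4 and 99.8 CPM, a log2 fold change of 0.32 (SE 0.06, adjusted P = 0.00302), without overlap. TGIF1 (ENSG00000177426, chr18:3411608-3459978, plus strand), a homeodomain co-repressor of SMADs, rose after PKM2 knockdown from 47.1, 50.4 and 52.7 to 80.8, 77.7 and 77.2 CPM without overlap and fell after NONO knockdown from 52.1, 65.9 and 61 to 47.4, 54.9 and 48.2 CPM with overlap. The log2 fold changes were 0.65 (SE 0.06, adjusted P = 1.06e-06) and -0.25 (SE 0.09, adjusted P = 0.0429), and the fall was lost without NC library 2 or 3 or knockdown library 1 or 3 (adjusted P = 0.119 to 0.166).

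SMURF2, a ubiquitin ligase that targets receptors and SMADs, fell after NONO knockdown from 377, 340 and 339 to 238, 240.3 and 267 CPM, a log2 fold change of -0.51 (SE 0.06, adjusted P = 7.11e-05) without overlap. After PKM2 knockdown it was at -0.10 (SE 0.04, adjusted P = 0.0706) and not called, and the difference between the responses was 0.39 (SE 0.08, adjusted P = 0.000403). After NONO and PKM2 knockdown in turn, its relative SMURF1 was at -0.04 (SE 0.05, adjusted P = 0.548) and 0.17 (SE 0.07, adjusted P = 0.0556). SKIL, a relative of SKI, was at 0.09 (SE 0.09, adjusted P = 0.452) and -0.10 (SE 0.09, adjusted P = 0.309). PMEPA1, a membrane protein that binds receptor-regulated SMADs, was at -0.36 (SE 0.29, adjusted P = 0.383) and 0.44 (SE 0.20, adjusted P = 0.0661). None of these 3 was called. In the PKM2 experiment SMURF1 passed without NC library 2 or knockdown library 3 (adjusted P = 0.00766 to 0.0187), SMURF2 without knockdown library 3 (adjusted P = 0.0459) and PMEPA1 without NC library 3 (adjusted P = 0.03). The annotation has pseudogenes named for SMURF2 and TGIF1, and exons of SMURF1, SMURF2 and PMEPA1 overlap genes on the opposite strand (TRRAP, CEP95 and NKILA). In all, 15 of the 46 genes have such an overlap, among them TGFB1, TGFB3, LTBP1, FSTL1, ACVR2A, ENG, SMAD3 and SMAD5. The strand setting of the counting is not stated, so reads of the partner genes cannot be told apart there. On the same strand, exons of TGFB2 share 1371 of their 5151 bases with TGFB2-OT1, and those of SMAD4 share 967 with AC091551.1. Shorter stretches of 62 and 179 bases are shared by FSTL1 and SMAD5. No strand setting would separate the reads of these same-strand overlaps.

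Of the 4 target genes, the 3 that could be tested fell after PKM2 knockdown, where 34.7% of all genes were lowered. ID1 (ENSG00000125968, chr20:31605283-31606515, plus strand), an inhibitor of basic helix-loop-helix factors and a direct BMP target, whose promoter is printed above, was at 53.5, 46.03 and 58.2 CPM in NC and 13.9, 13.7 and 14.4 CPM after the knockdown in the PKM2 experiment. It fell 3.75-fold without overlap, with a log2 fold change of -1.91 (SE 0.09, adjusted P = 5.34e-09). In the NONO experiment ID1 was at 119.5, 112 and 116 CPM in NC and 134, 140 and 111 CPM after the knockdown, with overlapping groups and 0.15 (SE 0.07, adjusted P = 0.153), and it passed without NC library 1 or knockdown library 3 (adjusted P = 0.0116 to 0.0297). Its NC level was 116 ± 3.87 CPM (SD, n = 3) there against 52.6 ± 6.12 CPM in the PKM2 experiment. ID3 (ENSG00000117318, chr1:23557918-23559794, minus strand), its relative, was at 10.03, 11.2 and 10.2 CPM in NC and 2.49, 2.75 and 3.77 CPM after the knockdown in the PKM2 experiment, a 3.48-fold fall with a log2 fold change of -1.80 (SE 0.16, adjusted P = 8.75e-07). After NONO knockdown ID3 rose from 17.2, 11.8 and 13.2 to 20.3, 19.5 and 20.9 CPM, with a log2 fold change of 0.53 (SE 0.12, adjusted P = 0.00645). No library overlapped in either experiment, and the responses differed by -2.34 (SE 0.21, adjusted P = 5.77e-08) for ID3 and by -2.07 (SE 0.12, adjusted P = 4.96e-10) for ID1. ID2, the remaining ID gene in the set, had 1, 5 and 6 counts in NC and 2, 0 and 3 in the NONO knockdown. In the PKM2 experiment it had 5, 6 and 13 and 4, 6 and 3, too few for a test. TGFBI, a matrix protein induced by TGF-β, fell after PKM2 knockdown from 31.7, 30.2 and 32.99 to 25.9, 24.1 and 25.2 CPM, with a log2 fold change of -0.34 (SE 0.07, adjusted P = 0.000698). After NONO knockdown it was at -0.25 (SE 0.14, adjusted P = 0.194) and passed without NC library 1 (adjusted P = 0.000621).

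The responses were then set against each other. Of the 43 genes tested in both experiments, 9 (20.9%) were called in the same direction by both knockdowns, where 19.3% of all genes were. TGFBR1, BMPR1A, TGFBR3, SKI and LTBP1 rose after both, and ENG, FSTL1, SMAD3 and SMAD5 fell after both. The calls of BMPR1A after PKM2 knockdown and of LTBP1 and SMAD5 after NONO knockdown are among those lost without 1 library. Another 6 (14%) were called in opposite directions, where 7.97% of all genes were. TGFBR2 and ID3 rose after NONO knockdown and fell after PKM2 knockdown, and ACVR1, ACVR2A, BAMBI and TGIF1 fell after NONO knockdown and rose after PKM2 knockdown. The 6 became 5 without NC library 2 or 3 or knockdown library 1 of the NONO experiment, since TGIF1 was then not called, and without NC library 1 they became 8. Limma on log2(TPM + 1) called 4 of them in opposite directions, as the calls of ACVR2A and ID3 after NONO knockdown were lost. The interaction, which compares the PKM2 response with the NONO response over the 12 libraries, was called for 25 of the 43 genes tested in both experiments (58.1%). Over all 15995 genes of that fit, which include genes not tested in both experiments, the share was 53.1%. The interaction was also called for INHBB, which entered this fit through the PKM2 libraries alone and had 5 counts or fewer in each library of the NONO experiment, so no comparison of its responses is drawn. For ENG, FSTL1, TGFBR1, TGFBR3, SKI, SMAD5 and BMPR1A the direction was shared and the size differed, and for LTBP1 and SMAD3 the difference was not called. As log2 fold change after PKM2 knockdown minus that after NONO knockdown, the larger of the differences among the 43 genes were -2.71 for ENG (adjusted P = 1.7e-09), -2.67 for TGFBR2 (adjusted P = 3.04e-13) and -2.34 for ID3 (adjusted P = 5.77e-08).

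**Figure D2:**
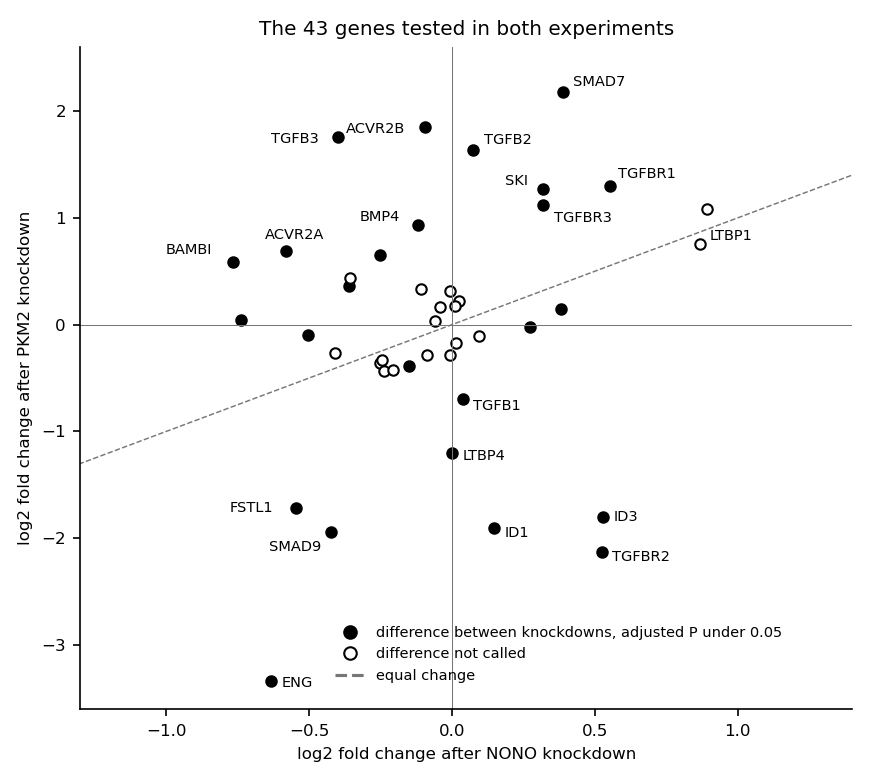
Log2 fold change after PKM2 knockdown against that after NONO knockdown for the 43 genes tested in both experiments; filled points have a difference between the knockdowns at an adjusted P under 0.05, and the dashed line marks equal change. The vertical axis covers a wider range than the horizontal one, and TGFBR2 and ID3 lie at lower right while BAMBI and ACVR2A lie at upper left.

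Other genes of the pathway, outside the 46, were counted from fixed lists by the same call, where 33.4% of all genes were called after NONO knockdown and 68.4% after PKM2 knockdown. Of 26 further superfamily ligands, 6 passed the filter in the NONO experiment and 5 in that of PKM2. AMH, anti-Müllerian hormone, and BMP6 fell after NONO knockdown (log2 fold change -1.13, adjusted P = 0.000191 and log2 fold change -0.63, adjusted P = 0.0365), and none rose. The BMP6 call was lost without NC library 2 or 3 or knockdown library 1 or 3 (adjusted P = 0.0567 to 0.138), and AMH was at 1.20 (adjusted P = 0.0631) after PKM2 knockdown. After PKM2 knockdown BMP8B, GDF11 and BMP6 fell (log2 fold change -2.28, adjusted P = 6.27e-07, log2 fold change -1.92, adjusted P = 2.37e-08 and log2 fold change -1.54, adjusted P = 0.00022), and GDF15, a stress-induced cytokine, rose (log2 fold change 2.50, adjusted P = 9.57e-08). None of BMP8B, GDF11 and GDF15 was called after NONO knockdown. Of 11 further receptors and co-receptors 3 were tested in each experiment. The BMP co-receptor RGMB fell after both knockdowns (log2 fold change -0.74, adjusted P = 9.61e-07 after NONO and log2 fold change -1.07, adjusted P = 3.52e-09 after PKM2 knockdown). NRP1, which binds TGF-β, rose after both (log2 fold change 0.41, adjusted P = 0.000277 and log2 fold change 0.49, adjusted P = 2.07e-06). NRROS, which anchors latent TGF-β, rose after PKM2 knockdown (log2 fold change 0.65, adjusted P = 6.94e-06) and was at -0.21 (adjusted P = 0.13) after NONO knockdown. Of 17 further antagonists and latency proteins, 5 and 6 were tested, with 2 raised and 1 lowered after NONO knockdown and 2 and 2 after PKM2 knockdown. BMPER, which binds BMPs, fell after NONO knockdown (log2 fold change -1.55, adjusted P = 0.000833), and TWSG1, another BMP-binding protein, fell after PKM2 knockdown (log2 fold change -1.83, adjusted P = 6.08e-10). In the other experiment BMPER was at -0.08 (adjusted P = 0.571) and TWSG1 at -0.02 (adjusted P = 0.837).

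Of 23 further SMAD regulators, 22 were tested in each experiment, with 8 raised and 4 lowered after NONO knockdown (54.5%) and 9 raised and 8 lowered after PKM2 knockdown (77.3%). Of the 12 calls after NONO knockdown 7 held with each library left out, there were 8 without knockdown library 2 or 3, and limma on log2(TPM + 1) made 3. WWP2, a ubiquitin ligase, rose after both (log2 fold change 0.39, adjusted P = 0.000476 and log2 fold change 1.30, adjusted P = 8.32e-09). ZEB2, a SMAD-interacting repressor, fell after both (log2 fold change -0.31, adjusted P = 0.00971 and log2 fold change -1.21, adjusted P = 5.54e-07). DAB2 also fell after both (-0.36, adjusted P = 0.000285 and -0.55, adjusted P = 3.37e-05). HIPK2 rose after NONO knockdown (0.21, adjusted P = 0.00441) and fell after PKM2 knockdown (-1.19, adjusted P = 1.19e-06). NEDD4L fell after NONO knockdown (-0.26, adjusted P = 0.000608) and rose after PKM2 knockdown (0.21, adjusted P = 0.00234). RNF111 fell after PKM2 knockdown (-1.08, adjusted P = 1.09e-07) and was not called after NONO knockdown. Of 18 textbook targets of TGF-β, 16 were tested, with 2 raised and 6 lowered after NONO knockdown (median log2 fold change -0.24). These 8 calls (50% of those tested) became 5 without knockdown library 2 and 6 under limma on log2(TPM + 1). There were 8 raised and 6 lowered after PKM2 knockdown (87.5%, median 0.38), where the median of all genes was -0.01. The cytokine IL11 fell after both (log2 fold change -2.63, adjusted P = 2.19e-08 and log2 fold change -1.92, adjusted P = 2.96e-10). CCN2, a matricellular protein, also fell after both (log2 fold change -1.06, adjusted P = 4.24e-07 and log2 fold change -1.57, adjusted P = 4.36e-10), as did CDKN1A, a cell cycle inhibitor (log2 fold change -1.23, adjusted P = 1.53e-07 and log2 fold change -1.27, adjusted P = 2.02e-09). FN1, fibronectin, and PRRX1, a homeodomain factor, fell after PKM2 knockdown (log2 fold change -1.70, adjusted P = 1.51e-08 and log2 fold change -4.09, adjusted P = 4.18e-05), and PDGFB rose (log2 fold change 2.00, adjusted P = 2.51e-05). None of these 3 was called after NONO knockdown. PRRX1 went from a mean of 1.25 to 0.0706 CPM and PDGFB from 0.680 to 2.72 CPM after PKM2 knockdown. Both were low and below the TPM filter. After NONO knockdown COL1A1 and HMGA2 fell (log2 fold change -0.72, adjusted P = 0.00226 and log2 fold change -0.38, adjusted P = 0.000351). Both rose after PKM2 knockdown (log2 fold change 0.34, adjusted P = 0.00502 and log2 fold change 0.53, adjusted P = 5.29e-06). The COL1A1 rise was not called under limma on log2(TPM + 1) (adjusted P = 0.617). Beside these and PDGFB, the targets raised after PKM2 knockdown were ANGPTL4 (1.55), THBS1 (1.47), COL4A1 (1.28), JUNB (0.89) and SNAI2 (0.52). Of 8 further textbook BMP targets 3 were tested, and RUNX2, a bone transcription factor, rose after both knockdowns (log2 fold change 0.29, adjusted P = 0.0459 and log2 fold change 0.60, adjusted P = 2.16e-05). Its call after NONO knockdown was lost without NC library 3 or knockdown library 1 or 2 or 3 (adjusted P = 0.0694 to 0.172) and under limma on log2(TPM + 1). ATOH8, a helix-loop-helix factor, rose after PKM2 knockdown (log2 fold change 0.75, adjusted P = 0.0245), a call lost without NC library 1 or knockdown library 3 (adjusted P = 0.0539 to 0.0545) and under limma on log2(TPM + 1).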

How the data were processed

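RNA-seq values of 46 genes were examined in 12 MDA-MB-231 libraries, 3 per group, grouped by the sample labels. Poly(A)-selected RNA had been sequenced as paired Illumina reads. Per the file headers, the authors deposited an estimated count (not whole) and a TPM per gene and library. The submitters' processing notes list fastp, HISAT2, StringTie, RSEM, DESeq2, edgeR and limma with the build hg19 and no versions or roles, while the gene names belong to a GRCh38-era annotation, so coordinates here (GENCODE 29 and RefSeq, GRCh38) serve for location only. Column names repeat between the tables, so each column was assigned by its table and checked by the fall of the targeted gene. The authors' own fold changes, P values and group mean TPM in these tables were not used, and 0 per-library columns were left unused.

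Estimated counts were rounded. Knockdown and NC libraries of an experiment were compared by edgeR 4.0.16 (R 4.3.3) quasi-likelihood tests with TMM normalization and filterByExpr, without a replicate block, on all genes (14832 and 15524 after the filter), with Benjamini-Hochberg adjustment over them. The SE came from the F statistic. Differences between knockdowns were the interaction in 1 edgeR fit of 12 libraries and 15995 genes. A gene was called at an adjusted P below 0.05, and the study's cutoffs were a fold change above 2 with P below 0.05. The settings varied were relative log expression factors, DESeq2 1.42.0, the filter left off, a replicate block, limma 3.58.1 on log2(TPM + 1) where the mean TPM was at least 1, a pseudocount of 0.1, no TPM filter, other cutoffs, each library left out, and removal of length trends. Removal of GC and length trends together, over 20 bins each, was added after seeing the data. Procedures were tested on simulated data. The members and the pathway lists were chosen with earlier results of these data known. Per-library values are given for genes over 2-fold, the 8 largest called changes per experiment and genes called in opposite directions. From the pathway lists, genes were named mainly by size of called change, up to 4 per list and experiment. The remaining TGF-β targets raised after PKM2 knockdown were added. Replicate libraries differed by more than sampling noise (chi-square per degree of freedom 2.33 to 12.3). With 3 libraries per group, an exact permutation test cannot go below 0.1.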

Additional observations from a re-analysis of the deposited data

Results flagged for a closer look

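For 26 genes the change after PKM2 knockdown differed from that after NONO knockdown by the interaction test at an adjusted P below 0.05, where 53.1% of all genes did. The values are log2 fold change after PKM2 knockdown minus that after NONO knockdown, each against its own NC group. Of the ligands, the difference was 2.14 for TGFB3, 1.55 for TGFB2, 1.04 for BMP4 and -0.75 for TGFB1. For INHBB the fit gave 2.90 (SE 0.82), but this gene had 5 counts or fewer in each library of the NONO experiment, where it could not be tested, and the value is no measure of a difference. Among latency proteins and antagonists it was -1.22 for LTBP4, -1.18 for FSTL1 and -0.30 for FST. The receptors and co-receptors gave 0.73 for TGFBR1, 0.71 for ACVR1, -0.25 for BMPR1A, -2.67 for TGFBR2, 1.25 for ACVR2A, 1.94 for ACVR2B, 0.78 for TGFBR3, -2.71 for ENG and 1.34 for BAMBI. SMADs and inhibitors gave -0.25 for SMAD5, -1.53 for SMAD9, 0.76 for SMAD6, 1.77 for SMAD7, 0.39 for SMURF2, 0.94 for SKI and 0.89 for TGIF1. Of the target genes, ID1 gave -2.07 and ID3 -2.34. With each library left out in turn, 21 of the 25 other than INHBB kept the call and the direction, and 4 lost it, FST without library 2 or 3 of the NC group for NONO or library 1 or 2 of the NONO knockdown or library 1 or 2 of the NC group for PKM2 or library 1 of the PKM2 knockdown (adjusted P = 0.056 to 0.125), BMPR1A without library 1 of the NONO knockdown (adjusted P = 0.0565), SMAD5 without library 1 of the NONO knockdown or library 2 of the NC group for PKM2 (adjusted P = 0.0631 to 0.0681) and SMAD6 without library 1 or 3 of the NC group for NONO or library 3 of the NONO knockdown (adjusted P = 0.0565 to 0.0796). Under limma on log2(TPM + 1), TGFB3 was at 0.57 (adjusted P = 0.375), BMPR1A at -0.14 (adjusted P = 0.359), SMAD5 at -0.13 (adjusted P = 0.298) and SMAD6 at 0.10 (adjusted P = 0.795), none of them called, and SMAD9 was below the TPM filter.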

How the results depend on the processing

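Of the 18 calls after NONO knockdown, 13 held with each library left out, and of the 35 after PKM2 knockdown 28 did. The calls lost in at least 1 refit were LTBP1, FST, SMAD5, SMAD6 and TGIF1 for NONO, and INHBA, BMP2, LTBP2, LTBP3, ACVR1B, BMPR1A and SMAD2 for PKM2. DESeq2 called 9 genes lowered and 8 raised after NONO knockdown, and 13 and 16 after PKM2 knockdown. With the filter left off these numbers were 10 and 9, and 14 and 17. Under DESeq2 the PKM2 calls of INHBA, BMP2, LTBP2, ACVR1B, BMPR1A and SMAD2 were lost (adjusted P = 0.0644 to 0.148). Limma on log2(TPM + 1), log2(TPM + 0.1) and log2(TPM + 1) without the filter called 6, 6 and 5 genes lowered and 2, 2 and 1 raised after NONO knockdown, and 3, 3 and 2 in the same direction in both. Under the first of these, 10 of the 18 calls after NONO knockdown were lost with the direction kept (LTBP1, FST, BMPR1A, ACVR2A, TGFBR3, SMAD3, SMAD5, SMAD6, SKI and ID3), and after PKM2 knockdown those of TGFB3, at 0.35 (adjusted P = 0.506), BMP2, LTBP1, LTBP2 and BMPR1A. The same setting gained calls after PKM2 knockdown for SMAD1 at -0.45 (adjusted P = 0.0204), SKIL at -0.29 (adjusted P = 0.0358) and PMEPA1 at 0.38 (adjusted P = 0.0242). Under these 3 settings LTBP3 after PKM2 knockdown was at -0.041, -0.042 and -0.041 and ACVR1B at -0.062, -0.069 and -0.062, both reversed in sign. After NONO knockdown LTBP3 ranged from -0.24 to 0.23 over the refits without 1 library. Genes past 2-fold after NONO knockdown numbered 0 to 2 over these refits (1 without NC library 2 and 2 without NC library 3) and 4 at 1.5-fold with an adjusted P below 0.05. The cause was not tested. Removal of length trends shifted the log2 fold changes after PKM2 knockdown by -0.12 to 0.12, beyond the replicate error for 9 of 44 genes, and of GC and length trends by -0.15 to 0.36, for 14. No gene moved beyond it after NONO knockdown, and no called gene changed sign in either. Removal of GC and length trends shifted the differences between the knockdowns by -0.13 to 0.31, beyond the replicate error for 6 of 43 genes. With length trends alone removed it was 0 of 43, and no called difference changed sign.

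Same-numbered libraries did not deviate together (correlations -0.12, 0.05 and -0.06 in the NONO and -0.07, 0.00 and 0.04 in the PKM2 experiment). Libraries with different numbers gave -0.14 to 0.16. With 3 libraries per group these correlations show no pairing by number but cannot exclude it. With the replicate block, the lowered and raised genes numbered 8 and 8 for NONO and 15 and 17 for PKM2, and SMAD5 after NONO knockdown had an adjusted P of 0.0533. Depth limits GREM1, ID2, INHBA and INHBB.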

Other observations

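Count-based and TPM-based changes differed by over 0.4 on the log2 scale for 6 gene and experiment pairs, given here as the log2 ratio of the TPM means beside the log2 fold change from counts. After PKM2 knockdown the values were 0.24 and 1.76 for TGFB3, 0.33 and 0.75 for LTBP1, -2.36 and -1.94 for SMAD9, and -0.42 and 0.04 for SMAD6. After NONO knockdown they were -1.02 and -0.58 for ACVR2A and 0.07 and -0.36 for PMEPA1. In TPM, SMAD6 in the NC libraries of the PKM2 experiment stood at 1.7, 1.67 and 3.46, while its counts there were 148, 127 and 144. The targeted gene of each experiment was also measured in the other, where NONO was raised after PKM2 knockdown (log2 fold change 0.30) and PKM was raised after NONO knockdown (0.26).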
